A study of Mus musculus with 18 samples.

Results

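Autosomal DNA methylation of induced pluripotent stem cells (iPSC) was compared with that of male (XY) embryonic stem cells (ESC), with 2 mouse libraries in each group. Both iPSC libraries are labelled female, so cell origin and sex cannot be told apart in the comparison. The series measured 18 libraries by reduced representation bisulfite sequencing (RRBS), which reads CpG methylation in restriction fragments rich in CpGs. The other libraries came from 4 female (XX) ESC, 4 female and 2 male mouse embryonic fibroblast (MEF) samples, and 2 samples each labelled SSEA1 positive and SSEA1 negative, SSEA1 being a cell surface marker. The labels used here name the cell type and sex of each ESC, iPSC and MEF sample, and only the marker for the SSEA1 samples. No strain, line, clone, passage or reprogramming method was used here because the labels carry none. Nothing in them says whether the numbered samples of a group are separate cultures, so the spread behind every p-value is that of these samples alone and could be technical. The unit of comparison was a 1 kb tile on chromosomes 1 to 19 with at least 3 CpGs of at least 5 reads in each of the 4 libraries, both strands of a CpG added. Of 146069 tiles that reached this in any library of the series, 59189 reached it in all 4.

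Methylation of CpGs is copied to new DNA strands by Dnmt1 and set anew by Dnmt3a and Dnmt3b, and Tet enzymes oxidize it as a step of its removal. In most mammalian tissues CpG-poor DNA is highly methylated, while CpG islands at the promoters of active and developmental genes are mostly free of it. Mouse XX ESC, in which both X chromosomes are active, are known for lower methylation across the genome than XY ESC. Promoters of many germline genes are methylated in somatic cells, and imprinted promoters carry methylation on the copy from 1 parent.

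The upstream 250 bases of 4 genes whose promoter tiles differed are shown, and each holds CpGs that could be compared in all 4 libraries. So did windows not shown, at Acta1, Ralgds, Pax6, Hymai, Tet3 and Thegl. Acta1 followed its lower tile, with CpG means of 55.1% and 61.4% in iPSC and 80.6% and 78.7% in XY ESC. Ralgds, also a lower tile, did not, with 7.12% and 5.07% against 5.67% and 0%. At Pax6, another lower tile, the means were 8.38% and 8.97% against 2.83% and 11.5%. Thegl, a higher tile, had 16.3% and 15.4% against 21.6% and 16.7% at 1 CpG. The tiles also hold CpGs outside these windows: the Plagl1 window has 6 CpGs of the files, while the tile levels of XY ESC rest on 19 and 18. Rab7, a small GTPase of late endosomes, and Ppp1r26, a regulatory subunit of protein phosphatase 1, were higher in iPSC, while Slc25a31, a germ cell ADP/ATP carrier, and Plagl1, an imprinted zinc finger gene, were lower. The sequences are from RefSeq (GRCm38.p6) and were placed in mm9 by the spacing of their CpGs. Each is written 5′ to 3′ on the strand of its gene up to the annotated start, with capitals at the CpGs that had at least 5 reads in all 4 libraries.
Rab7, chr6:87995012-87995261, minus strand: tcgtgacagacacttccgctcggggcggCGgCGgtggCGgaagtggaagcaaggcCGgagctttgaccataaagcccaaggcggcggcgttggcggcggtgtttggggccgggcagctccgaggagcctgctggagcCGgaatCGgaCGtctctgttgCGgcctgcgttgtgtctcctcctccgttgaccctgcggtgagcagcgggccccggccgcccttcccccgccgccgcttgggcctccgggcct
Ppp1r26, chr2:28302340-28302589, plus strand: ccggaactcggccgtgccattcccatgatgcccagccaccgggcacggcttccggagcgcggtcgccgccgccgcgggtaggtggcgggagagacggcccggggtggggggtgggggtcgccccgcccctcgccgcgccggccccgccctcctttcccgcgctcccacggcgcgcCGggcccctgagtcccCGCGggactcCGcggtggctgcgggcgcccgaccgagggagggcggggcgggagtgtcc
Slc25a31, chr3:40512543-40512792, plus strand: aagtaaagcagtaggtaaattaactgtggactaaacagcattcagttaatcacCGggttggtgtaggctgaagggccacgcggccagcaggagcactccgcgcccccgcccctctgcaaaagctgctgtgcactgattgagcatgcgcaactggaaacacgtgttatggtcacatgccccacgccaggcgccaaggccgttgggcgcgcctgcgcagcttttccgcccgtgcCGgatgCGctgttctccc
Plagl1, chr10:12810388-12810637, plus strand: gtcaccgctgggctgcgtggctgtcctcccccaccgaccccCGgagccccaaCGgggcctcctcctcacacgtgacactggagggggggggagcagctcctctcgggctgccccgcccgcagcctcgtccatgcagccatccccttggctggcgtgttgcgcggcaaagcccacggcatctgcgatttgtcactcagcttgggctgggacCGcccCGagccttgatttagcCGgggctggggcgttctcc
The capitals mark 8 CpGs upstream of Rab7, 4 upstream of Ppp1r26, 3 upstream of Slc25a31 and 5 upstream of Plagl1.

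Autosomal reads over CpGs numbered 30357077 and 33243325 in the iPSC libraries and 23031700 and 12017929 in the XY ESC libraries. The median tile held 183 and 205 reads in iPSC and 147 and 73 reads in XY ESC. The libraries also differed in kind: 7.25% and 7.35% of CpGs had reads on both strands in iPSC, against 10.5% and 9.03% in XY ESC. Only female MEF 3 and 4 resembled the iPSC libraries in this share, with 7.33% and 7.46%. No label names a batch, so this difference between libraries and the difference between cell types cannot be told apart from these 4 libraries alone.

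The iPSC libraries had a background at DNA that was unmethylated elsewhere. Over 3570 tiles with under 1% methylation in every XX ESC and male MEF library, the median level was 3.15% in iPSC 1 and 3.37% in iPSC 2. Both XY ESC medians were 0, and the highest median in any other library was 0.698%, in female MEF 4. Both iPSC libraries lay above both XY ESC libraries at 93.8% of these tiles. Of these tiles 6 (0.168%, against 0.649% of all tiles) were called higher by the test described further on, which asks for 20 points. Differences of about 3 points at low-methylated tiles are of the size of this background, whose origin was not tested.

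The iPSC were less methylated than the XY ESC over the autosomes. Across 435797 CpGs with at least 5 reads in all 4 libraries, the mean level was 45.9% in iPSC 1 and 44.8% in iPSC 2, against 53.5% in XY ESC 1 and 53.7% in XY ESC 2. The group means were 45.4% ± 0.776 (SD, n = 2) and 53.6% ± 0.172 (SD, n = 2), a difference of -8.21 points. Over each library's own CpGs, which differ between libraries, the difference was -1.79 points. The groups did not overlap, and the 2-sided exact permutation p was 0.333, the smallest that 2 against 2 allows. Over 148842 CpGs read in all 18 libraries, iPSC had 43.1% and 42.2%, XY ESC 49.5% and 49.7%, XX ESC 32.7% to 33.3%, and MEF 51.1% to 54.2%. On that scale the iPSC libraries lay above every XX ESC library and below every XY ESC and MEF library.

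The groups differed plainly at the top of the scale. In iPSC, 1.15% and 0.845% of tiles were above 90% methylation, whereas in XY ESC 15.3% and 17.4% were. The share above 80% was 11.8% and 9.63% in iPSC and 33.3% and 33.6% in XY ESC. At the other end, 33.5% and 34.3% of iPSC tiles and 32.1% and 31.7% of XY ESC tiles were under 20%. Tile medians were 50.4% and 48.1% in iPSC and 62.7% and 62.5% in XY ESC. Over the 32195 tiles measured in all 18 libraries, 11.7% and 11.1% of tiles were above 90% in female MEF 3 and 4, against 0.472% and 0.363% in iPSC and 7.53% and 9.09% in XY ESC.

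**Figure D1:**
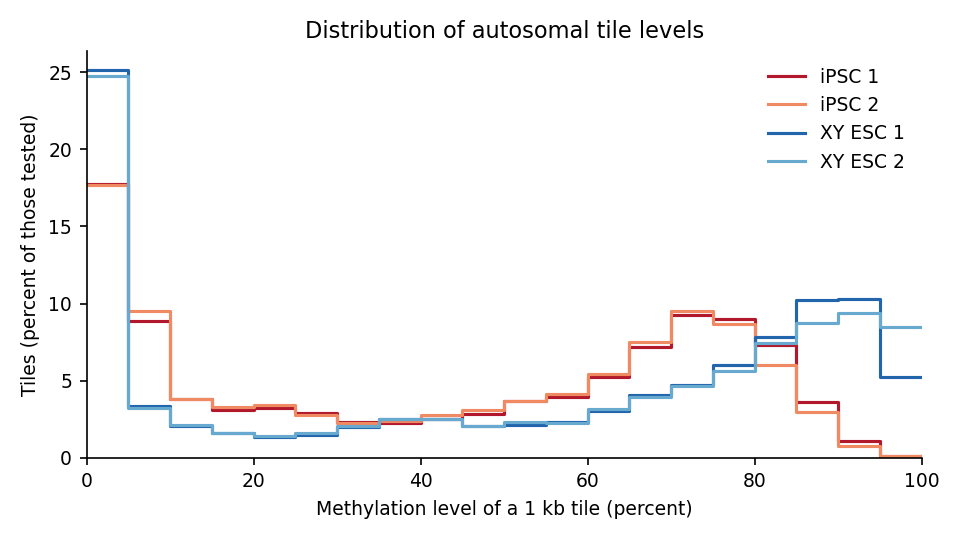
The share of the 59189 autosomal tiles (vertical axis, percent) in each 5-point band of methylation level (horizontal axis, percent) is drawn as 1 stepped line per library. Both iPSC lines fall away above 80%, where both XY ESC lines peak, and they hold fewer tiles in the lowest band and more in the band from 5% to 10%.

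Lower methylation in iPSC was called at many tiles and higher methylation at few. Each tile was tested with a quasi-binomial model of methylated and total reads, with the dispersion moderated across tiles as limma's squeezeVar does and Benjamini-Hochberg adjustment over all tiles. A tile was called at an adjusted p under 0.05 with group means at least 20 points apart. The test called 8117 tiles, 13.7% of those tested: 7733 lower in iPSC (13.1%) and 384 higher (0.649%). The median difference was -26.1 points over the lower tiles and 26.8 over the higher tiles, and -6.33 over all tiles. The groups did not overlap at any called tile, as they also did not at 48.8% of all tiles in the lower and 26.8% in the higher direction. Restricting each tile to CpGs read in all 4 libraries left 53597 tiles, of which 5897 were called lower (11%) and 178 higher (0.332%). Of the 7733 lower tiles, 6826 could be tested in this way and 5388 (78.9%) were called again; of the 384 higher tiles, 262 could be tested and 137 (52.3%) were called again. The other 122 higher tiles had fewer than 3 such CpGs, so their libraries were compared mostly over different CpGs.

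The count depended on how the spread was estimated once a library was left out. Without iPSC 1 or without iPSC 2 the same model, and limma on the log2 ratio of reads with and without methylation, called 0 tiles. With 1 iPSC library the spread within groups comes from XY ESC alone, and the prior degrees of freedom fell from 4 to 0.683 and 0.682. With the prior from tiles with a dispersion above 0, a setting chosen after those 0 counts were seen, 3929 and 2081 tiles were called. At an unadjusted p under 0.05 with 20 points, the model then held 3530 and 2695 tiles, and limma 5207 and 4194. With the spread pooled over all groups of the series, 3115 and 2327 tiles were called without iPSC 1 and 2, against 3156 with both. Subtracting each library's background also gave 0 calls with the model (9256 tiles at an unadjusted p under 0.05 with 20 points), and 9707 calls with that other prior. Leaving out XY ESC 2 let 76658 tiles be tested, in place of 59189, with a median difference of -7.84 points, in place of -6.33.

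The XY ESC libraries differed more from each other than the iPSC libraries did. The levels of XY ESC 1 and 2 were at least 20 points apart at 3673 tiles (6.21%), and those of iPSC 1 and 2 at 797 tiles (1.35%). XY ESC 2 had the lowest depth of the 4. The chi-square per degree of freedom, which allows for depth, was 3.07 for XY ESC and 1.49 for iPSC. Both measures use each library's own CpGs, so a difference in the CpGs read also enters them. Autosomal CpGs with at least 5 reads numbered 877298 and 678434 in XY ESC and 748807 and 769297 in iPSC. Neither pair agreed within the noise of counting independent reads alone, for which a value of 1 would stand.

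Sorting the tiles by groups outside the comparison showed where the difference lay. Tiles were classed by the mean level in female MEF and in XX ESC as under 20%, 20% to 80% and above 80%. At 17975 tiles low in both, the medians were 4.39% and 4.50% in iPSC and 0.625% and 0.254% in XY ESC. The median difference of 2.99 points was close to the iPSC background, which was measured on tiles that mostly fall in this class. Calls were rare there, with 118 lower (0.656%) and 128 higher (0.712%). The most populated class held 21880 tiles above 80% in MEF and between 20% and 80% in XX ESC. Its medians were 71.4% and 70.5% in iPSC, 83.7% and 83.6% in XY ESC and 55.5% over XX ESC, and 17.1% of its tiles were called lower. At 1199 tiles above 80% in MEF and under 20% in XX ESC, which were the tiles with the widest gap between fibroblasts and ESC, iPSC had medians of 25.7% and 23.3% and XY ESC 38.9% and 39.7%, with 27.4% called lower and 0.334% higher. The 581 tiles with the opposite pattern, under 20% in MEF and 20% to 80% in XX ESC, also read lower in iPSC, at 47.2% and 43.0% against 57.1% and 60.8% in XY ESC. At the 589 tiles above 80% in both, the medians were 86.0% and 85.0% in iPSC and 92.9% and 93.3% in XY ESC. The 3323 tiles at 20% to 80% in MEF and under 20% in XX ESC had the highest share called higher, 3.31%, with 15.6% called lower. Of 11509 tiles at 20% to 80% in both, 21.9% were called lower and 0.756% higher. Thus iPSC medians lay below both XY ESC medians in every class drawn except the one low in both groups, and iPSC medians lay above the XX ESC median in all of them.

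**Figure D2:**
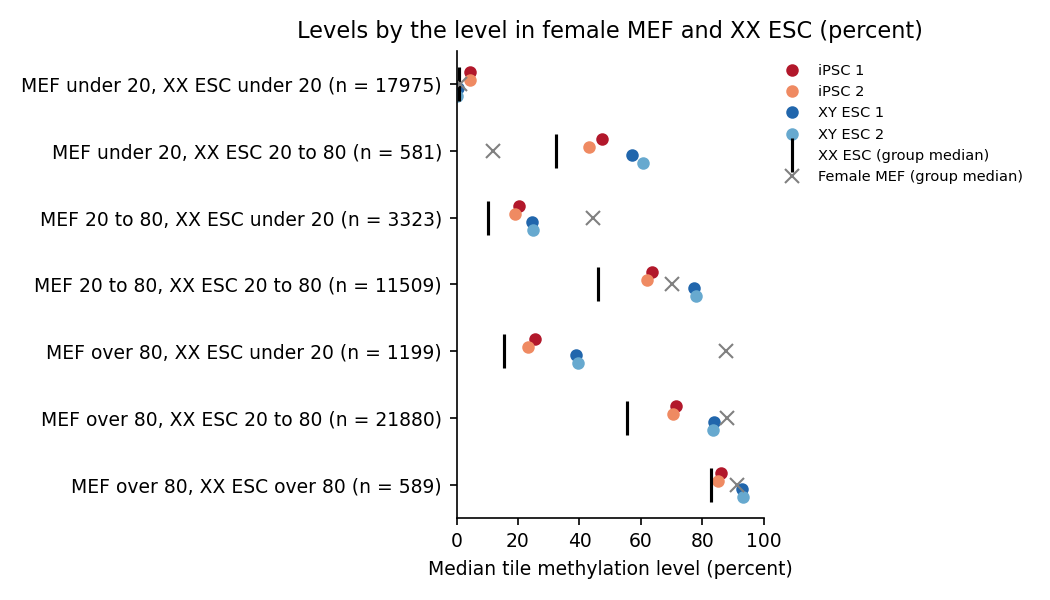
Each row is a class of tiles named by its level in female MEF and XX ESC, with the number of tiles, for the 7 classes of at least 500 tiles. The horizontal axis is the median tile level in percent; circles are the 4 compared libraries, the vertical bar is XX ESC and the cross is female MEF. The iPSC circles sit between the XX ESC bar and the XY ESC circles in all rows but the first, in which they lie to the right of both.

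CpG-poor tiles carried most of the lower calls. Of 35961 tiles with 3 to 9 CpGs in the files, 18.5% were called lower and 0.398% higher. Of 16656 tiles with 10 to 29 CpGs these shares were 6.30% and 1.07%, and of 6572 tiles with 30 or more CpGs they were 0.456% and 0.959%. Mean levels in the first set were 57.9% and 56.4% in iPSC and 68.4% and 68.9% in XY ESC; in the last they were 8.01% and 7.95% against 5.16% and 5.28%. The 87 tiles with at least 30 covered CpGs in every library averaged 12.2% ± 0.593 (SD, n = 2) in iPSC and 9.60% ± 0.909 (SD, n = 2) in XY ESC. That difference of 2.65 points had a 2-sided exact permutation p of 0.333, and it became -0.308 after the background was subtracted. Over the 32195 tiles measured in all 18 libraries, the median difference was 0.473 points in place of -6.33, with 2956 tiles lower and 200 higher in a fit of all 18. Chromosomes differed little from one another: the share called lower ran from 11% on chromosome 13 to 15.2% on chromosome 17, and the share called higher from 0.397% on chromosome 9 to 0.936% on chromosome 8.

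The other libraries gave different pictures at the tiles of the 2 directions. At the tiles called lower, where iPSC medians were 55.5% and 53.4% and XY ESC medians 83.1% and 84.4%, the 4 XX ESC medians ran from 40.6% to 41.8%, and all MEF and SSEA1 library medians from 77.2% to 85.9%. At the tiles called higher, iPSC medians were 48.4% and 45.2% and XY ESC medians 14.2% and 13.3%. There, female MEF 3 and 4 had medians of 50.4% and 48.7%, whereas female MEF 1 and 2 had 20% and 12.5%, although all are samples of 1 labelled group. Of 309 higher tiles measured in all 4 female MEF libraries, 77 (24.9%) had both MEF 3 and 4 at least 20 points above both MEF 1 and 2. That share was 0.789% of the lower tiles and 0.985% of all tiles. In the opposite direction, both MEF 3 and 4 lay at least 20 points below both MEF 1 and 2 at 9.71% of the higher tiles, 1.42% of the lower tiles and 0.462% of all tiles. Both shares were thus above those of all tiles at higher tiles, and only the second was at lower tiles. Leaving out all tiles at which MEF 3 and 4 stood apart in this way, in either direction, kept 202 of the 309 higher tiles and 5576 of 5702 lower tiles. A fit of all 18 samples with library type as a term called 1927 tiles lower and 251 higher. The 3 types were set by the share of CpGs read on both strands, with iPSC and female MEF 3 and 4 as 1 type. A fit without the term called 2956 lower and 200 higher. With the term the 20-point limit was put on the modelled difference at 1 library type, and without it on the difference of group means. The counts of these fits therefore differ by more than the term.

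**Figure D3:**
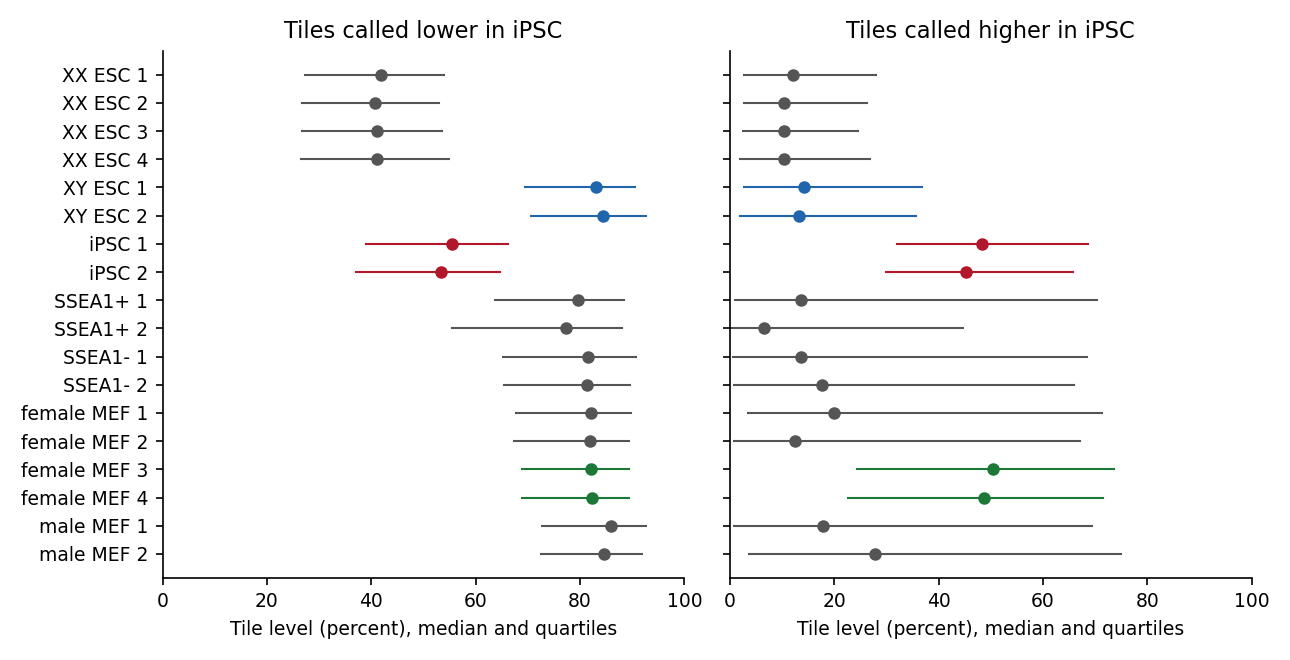
For tiles called lower (left) and higher (right) in iPSC, each row is a library, the circle its median tile level in percent and the line its quartiles. Red marks iPSC, blue XY ESC, green female MEF 3 and 4 and grey all others. On the left only XX ESC lie below iPSC, while on the right the green circles lie beside the red ones, apart from female MEF 1 and 2.

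At the 12 lower tiles with the largest differences, levels were 0% to 22.2% in iPSC and 65.8% to 100% in XY ESC. At chr6:134132001-134133000 the levels were 0% and 1.96% in iPSC and 91.0% and 88.5% in XY ESC (difference -88.8 points, adjusted p = 0.00921 by the moderated quasi-binomial test). XX ESC averaged 76.5% there and female MEF 1 and 2 had 88.2% and 90.2%, but female MEF 4 had 0%. A tile at chr3:154040001-154041000 had 7.74% and 11.3% in iPSC and 85.7% and 100% in XY ESC, with 81.2% in female MEF 1 and 24.6% and 28.1% in MEF 3 and 4. By contrast, chr14:20306001-20307000 had 3.33% and 6.90% in iPSC, 75.9% and 81.0% in XY ESC and 68.2% to 76.4% in all 4 female MEF libraries. Among the 12 lower tiles with the largest differences, 10 had values in both kinds of MEF library, and in 7 of those MEF 3 and 4 averaged at least 20 points below MEF 1 and 2. Comparing averages is a looser rule than the one used above, and its share over all tiles was not counted. None of the 12 lay over a placed promoter. The tile chr2:27298001-27299000 lay 31.9 kb downstream of the start of Brd3, a bromodomain protein that binds acetylated histones, within the length of that gene. It had 4.66% and 3.53% in iPSC and 72.0% and 79.6% in XY ESC, with averages of 15.4% in XX ESC and 22.0% in female MEF.

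Among the 12 higher tiles with the largest differences, female MEF libraries were often far apart as well. At chr3:61963001-61964000 the levels were 74.7% and 87.9% in iPSC and 9.65% and 12.6% in XY ESC (difference 70.1 points, adjusted p = 0.00921 by the moderated quasi-binomial test). Over the 9 CpGs read in all 4 libraries the difference was 70 points, with an adjusted p of 0.026 by the same test. Female MEF 3 and 4 had 89.4% and 92.8% at that tile, and female MEF 1 and 2 had 10.5% and 6.34%. At chr1:124253001-124254000 iPSC had 61.6% and 59.2%, XY ESC 5.80% and 5.76%, female MEF 3 and 4 83.7% and 83.8%, and female MEF 1 and 2 14.6% and 9.01%. Of the 12 named higher tiles, 11 had values in both kinds of MEF library, and in 9 of those MEF 3 and 4 averaged at least 20 points above MEF 1 and 2. Here too averages were compared, and no share over all tiles was counted by that rule. A tile at chr12:81564001-81565000 departed from this, with 58.0% and 56.7% in iPSC, 0% in both XY ESC and 10% in female MEF 3, but its libraries shared no CpG with enough reads. Among tiles with at least 30 covered CpGs in every library, 2 were called, both higher. One of them, chr13:99125001-99126000, had 30.3% and 20.7% in iPSC and 2.63% and 1.37% in XY ESC, with 0.315% to 6.17% across female MEF, and it was also called over 24 shared CpGs. The other, chr4:133523001-133524000, had 26.9% and 20.7% in iPSC and 0.757% and 0.200% in XY ESC, but over its 14 shared CpGs the difference was 5.08 points, in place of 23.4, and it was not called.

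Promoters were mostly unmethylated in both groups. Promoters could be placed for 7351 genes, and 5506 tested tiles held the promoters of 6085 genes. Of these tiles 94.5% were under 20% in all 4 libraries, 25 were called lower (0.454%) and 49 higher (0.89%). Higher calls outnumbered lower ones there, unlike over all tiles. A call in either direction needs 1 group mean of at least 20%, so those 94.5% of tiles could be called neither lower nor higher. Over CpGs read in all 4 libraries, 12 of the 25 lower and 15 of the 49 higher tiles were called again, while 24 of the 49 had too few shared CpGs to be tested. The median promoter tile had 3.74% and 3.87% in iPSC and 0.244% and 0% in XY ESC.

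Among the promoters called higher, Rab7 and Ppp1r26 were also called over the CpGs read in all 4 libraries. The Rab7 tile had 44.6% and 36.0% in iPSC and 1.70% and 0.303% in XY ESC (difference 39.3 points, adjusted p = 0.00921 by the moderated quasi-binomial test). Of the 8 capital CpGs in its sequence, 5 were higher in both iPSC than in both XY ESC. Among these, the CpGs 195 and 219 bases before the start had only 10 and 12 reads in iPSC 1 and 2. Over all tiles, 26.8% did not overlap in this direction, and no share over single CpGs was counted. The CpG 92 bases before the start had 94.4% and 90.9% in iPSC and 11.1% and 0% in XY ESC, although XY ESC 2 had only 5 reads there. Female MEF 3 and 4 had 12.7% and 11.5% at the Rab7 tile. The Ppp1r26 tile had 40.7% and 40.1% in iPSC, 1.47% and 4.55% in XY ESC and at most 3.64% in any female MEF library. Of its 4 capital CpGs, 3 had 58.8% to 66% in iPSC and 0% in XY ESC 1 and 25% in XY ESC 2, while the CpG 59 bases before the start was at 0% in all 4. Rps7, which encodes a protein of the small ribosomal subunit, had 67.3% and 50.2% in iPSC, 11.8% and 6.34% in XY ESC, and 50.2% and 49.2% in female MEF 3 and 4. Pttg1, the securin that inhibits separase until anaphase, had 71.7% and 62.2% in iPSC and 0.820% and 8.21% in XY ESC, with 71.7% and 71.1% in female MEF 3 and 4. No CpG of the Pttg1 tile was read in all 4 libraries, so its levels compare different CpGs. At Parn, which encodes a poly(A) ribonuclease, the tile read 50.8% and 56.2% in iPSC and 16.4% and 21.4% in XY ESC, but over the shared CpGs the difference was -12.7 points and did not pass (adjusted p = 0.109 by the same test). The shared promoter tile of Kazn and Gm35531, and those of Cstf2t, Fhdc1 and Ski, had no shared CpGs and no value in female MEF 3 or 4. Their levels were 36.4% to 76.2% in iPSC and 0% to 1.97% in XY ESC.

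Among the promoters called lower, the widest difference was at P4ha3. The P4ha3 tile, at a gene for a collagen prolyl hydroxylase subunit, had 8.69% and 7.30% in iPSC and 33.9% and 68.4% in XY ESC (difference -43.2 points, adjusted p = 0.0133 by the moderated quasi-binomial test). Cartpt, which encodes a neuropeptide precursor, had 4.18% and 8.84% in iPSC and 32.3% and 60.4% in XY ESC. Too few shared CpGs were left to test Cartpt over them. The XY ESC libraries were far apart at both genes, and each lay above both iPSC libraries. Acta1, the skeletal muscle actin gene, had 43.2% and 50% in iPSC and 70.8% and 76.1% in XY ESC, and over shared CpGs the difference was -40 points. Dapk2, a calcium and calmodulin regulated kinase, had 16.3% and 14.6% in iPSC and 52.3% and 40.9% in XY ESC. Ralgds, an exchange factor for Ral GTPases, had 13.6% and 12.3% in iPSC and 46.3% and 35.6% in XY ESC. Of the 12 lower promoter tiles with the largest differences, 7 were also called over shared CpGs. At these 12 tiles MEF 3 and 4 averaged at least 20 points below MEF 1 and 2 in 2, a rule by which all tiles were not counted.

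**Figure D4:**
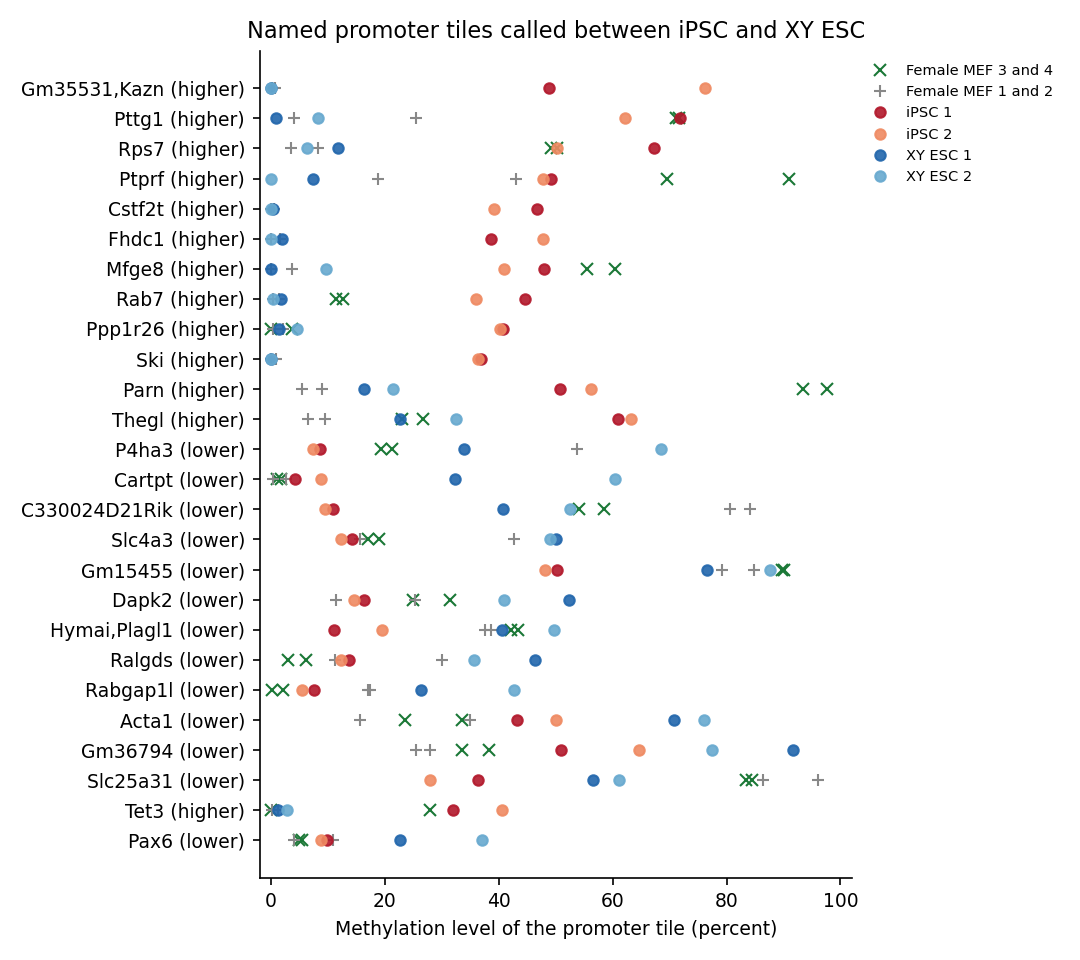
Each row is a named promoter tile with its direction in iPSC, and the horizontal axis is its methylation level in percent. Circles are the 4 compared libraries, green crosses female MEF 3 and 4 and grey plus signs female MEF 1 and 2, missing where a library had too few CpGs. Red and blue circles do not overlap in any row, and at Pttg1, Rps7, Ptprf, Mfge8 and Parn the green crosses lie far to the right of the grey signs.

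Gene lists were read beside the shares over all promoter tiles, 0.454% lower and 0.89% higher, and each list was too small for its share to be read as a result. Promoter tiles were tested for 7 of 38 autosomal imprinted genes, and of these 7 tiles 1 was lower and 0 were higher. That tile held the promoters of Plagl1 and of the imprinted RNA gene Hymai, with 11.1% and 19.4% in iPSC and 40.5% and 49.6% in XY ESC. XX ESC averaged 1.55% there and all 4 female MEF libraries had 37.6% to 43.4%. The XY ESC values drew on 19 and 18 CpGs and the iPSC values on 5, and over those 5 shared CpGs the difference was -16.0 points with an adjusted p of 0.0707 by the moderated quasi-binomial test. Those are the 5 capitals in the Plagl1 sequence, of which 2 were lower in both iPSC than in both XY ESC. Over all tiles, 48.8% did not overlap in this direction, and no share over single CpGs was counted. Mcts2, another imprinted gene, had 7.96% and 23.0% in iPSC and 28.7% and 42.6% in XY ESC over the same 11 CpGs and did not pass (adjusted p = 0.0876 by the same test), with 0.347% on average in XX ESC and 43.5% in female MEF. At Igf2r, Gab1, Gnas, Grb10 and Zdbf2 the differences were between 1.10 and 7.31 points.

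Promoter tiles were tested for 7 of 39 autosomal germline genes, and 1 was lower and 0 were higher, beside 0.454% and 0.89% of all promoter tiles. Slc25a31 had 36.3% and 28.0% in iPSC and 56.6% and 61.1% in XY ESC, against an average of 25.7% in XX ESC and 87.6% in female MEF. At its 3 capital CpGs the values were 22.2% to 37.5% in iPSC 1 and 14.3% to 18.8% in iPSC 2. In the XY ESC libraries they were 23.8% to 81.8% and 12% to 59.4%. Mael, a factor of the piRNA pathway, had 17.3% and 17.2% in iPSC and 32.5% and 18.3% in XY ESC, and Dmrtb1, a regulator of spermatogonia, had 34.8% and 35.1% against 16.9% and 26.4%. Both genes averaged above 80% in female MEF, at 80.5% and 90.5%. Tex101, a germ cell surface protein, had 75.6% and 73.4% in iPSC and 96.5% and 91.7% in XY ESC, a difference of -19.6 points that missed the 20-point limit.

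Among 10 promoter tiles of the methylation machinery, from 19 autosomal genes, 0 were lower and 1 was higher, beside the same 0.454% and 0.89%. The higher one lay at Tet3, which oxidizes methylcytosine, and also at the start of B230319C09Rik, with 32.0% and 40.5% in iPSC and 1.18% and 2.73% in XY ESC. Over its 3 shared CpGs the difference was 33.0 points, and female MEF 3 had 27.9% where the other 3 female MEF libraries had at most 1.23%. Dnmt3b had 3.22% and 4.03% in iPSC and 0% in both XY ESC. Among 16 tiles of 14 lineage regulators, of 54 autosomal genes listed, 1 was lower and 0 higher, again beside 0.454% and 0.89%. This was Pax6, a regulator of eye and brain development, with 9.81% and 8.86% in iPSC and 22.7% and 37.1% in XY ESC. Its difference over shared CpGs was -9.69 points. XX ESC averaged 16.5% and female MEF 6.31% at this tile. The lists of 6 pluripotency, 6 fibroblast and 9 Hox tiles held no call in either direction. Their differences ran from -10.6 to 11.2 points, and in no list did a difference reach 20 points in the direction with 0 calls, whatever its p. The median differences of these 3 lists were 2.75, 3.29 and 2.29 points, beside the 3.07 of all promoter tiles. Of the 10 promoters listed as pluripotency markers for a check of cell identity, only that of Fgf4 could be placed, and it was under 3% in all 4 libraries.

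The longest stretch of neighbouring lower tiles spanned 80 kb, chr8:126062001-126142000. It held 44 lower tiles of 71 tested and no higher one, while no other of the 80 lower runs held more than 5 lower tiles. Over CpGs read in all 4 libraries, 19 of 52 testable tiles were called, and the median tile difference was -11.4 points in place of -25.8. The stretch lies between the placed starts of Def8 and Rhou. In the RefSeq table of GRCm38.p6, 49 genes of 5S ribosomal RNA, 48 of them annotated as functional, lie between the same genes, at a median spacing of 1698 bases. They begin 95.8 kb from Def8 in that table, and the stretch begins 94.8 kb from it in mm9, which is how the stretch was matched to them after its values were seen. Repeated copies can be so alike that reads cannot be assigned to single ones. Whether this happened here was not tested, and the tiles are not taken as independent. The median tile of the stretch held 450 and 521 reads in iPSC, against 186 and 210 on the rest of the chromosome. In XY ESC the median tile held 174 and 90 reads, against 151 and 75. Median tile levels in the stretch were 8.32% and 7.71% in iPSC, 34.1% and 37.4% in XY ESC, 12.1% to 13.2% in XX ESC and 36.0% to 56.2% in female MEF. Over the 306 CpGs read in all 4 libraries, the mean was 12% and 11.5% in iPSC and 20.3% and 21.4% in XY ESC. That difference of -9.12 points had a 2-sided exact permutation p of 0.333, the smallest possible here. The medians over the same CpGs ran the other way, at 5.76% and 5.97% in iPSC and 5.13% and 0% in XY ESC. When those CpGs were weighted by reads, the values were 9.91% and 9.60% in iPSC and 38.9% and 40.9% in XY ESC. In the 100 kb on either side, 1 of 24 tiles was lower and 1 higher. Female MEF 3 and 4 had tile medians of 55.5% and 56.2% in the stretch.

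**Figure D5:**
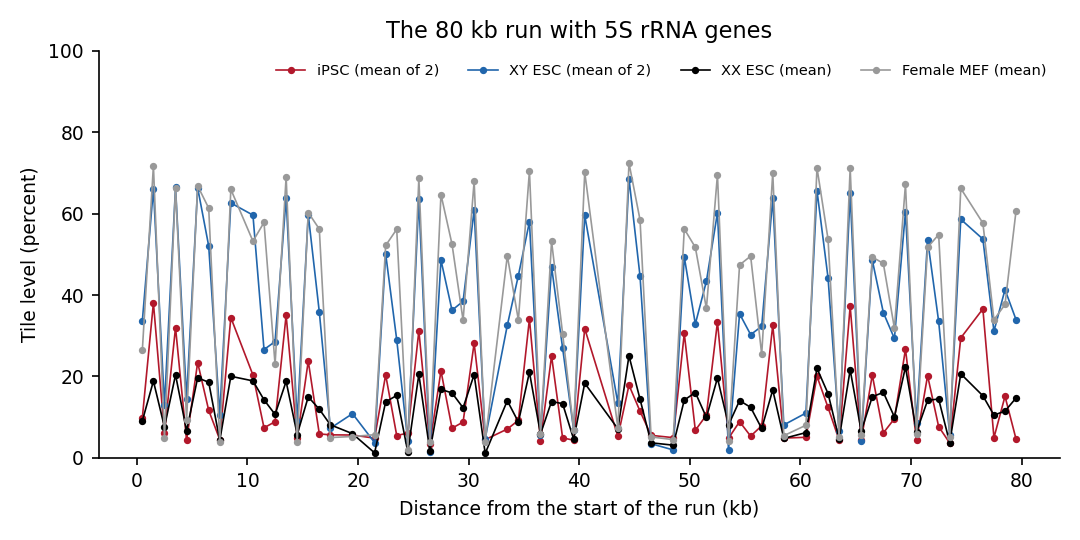
Tile level in percent (vertical axis) is plotted against distance from the start of the 80 kb stretch in kb (horizontal axis), with 1 line for the mean of each group. The XY ESC and female MEF lines rise above 60% at many tiles at which the iPSC line stays under 40%. All groups are low at some of the tiles between, and at others only iPSC and XX ESC are, as 16 kb from the start (iPSC 5.88%, XY ESC 35.8%, female MEF 56.2%).

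Shorter runs were scattered. The next longest lower runs, 4 in number, held 5 called tiles each. On chromosome 2, chr2:91468001-91489000 averaged 54.5% and 48.1% in iPSC and 74.7% and 76.8% in XY ESC. On chromosome 4, chr4:137075001-137096000, within the length of the perlecan gene Hspg2 as placed from its start, averaged 58.9% and 52.9% against 89.3% and 91.2%. On chromosome 15, chr15:88986001-89007000, near the promoters of the stress kinases Mapk11 and Mapk12, averaged 40.4% and 40.6% against 69.3% and 60.2%. On chromosome 5, chr5:143883001-143894000, whose first tile lay 8.30 kb upstream of the start of the ubiquitin ligase gene Rnf216, averaged 35.1% and 40.2% against 76.2% and 82%. Over shared CpGs, 2 of 4 testable tiles were called in the run on chromosome 2, 0 of 2 on chromosome 4, 3 of 5 on chromosome 15 and 4 of 5 on chromosome 5. The only higher run, chr5:122642001-122645000, held 3 called tiles with 71.2% and 74.3% in iPSC and 34.9% and 36.8% in XY ESC, and its 1 tile with enough shared CpGs was not called over them.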

How the data were processed

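Per the labels' protocols the libraries were made by RRBS; per the submitters' processing notes the build was mm9, and the sources used here give no aligner or methylation caller. The deposited files list, per CpG and strand, counts of methylated and total reads, which were used, and a score column, which the authors deposited and which was not used. Levels are methylated over total reads, in percent. The tile test (5 reads, 3 CpGs, 1 kb, 20 points) was written in Python 3.11.15 with numpy 2.4.6 and scipy 1.17.1, checked against limma 3.58.1 in R 4.3.3 and tested on simulated data. RefSeq promoters with at least 6 CpGs in the files were placed where their CpG spacing matched 1 place of their chromosome only. Of 31396 promoters, 17846 held at least 6 CpGs and 8324 were placed, of which 8269 passed a check of distances to neighbours. When the same 17846 were tried on an unrelated chromosome, 404 matched a place there, a measure of chance matches. Named tiles were the 12 largest non-overlapping calls per direction, 1 per 100 kb, the largest dense tiles, the 4 longest runs, called list promoters and the 12 largest promoter differences per direction. The members and gene lists were chosen with earlier results of these data known. Where promoters lacked sequence or placement, no value was given. Alternatives are in the closing section.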

Additional observations from a re-analysis of the deposited data

Results flagged for a closer look

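In groups of 4 libraries, 14 sets of values were screened for a library far from the other 3, a screen that flags about 1 in 20 groups by chance. At the unmethylated tiles, XX ESC 1 had a median of 0.194% while the other XX ESC libraries were at 0. Of tiles above 90% methylation, XX ESC 4 held 0.214%, against 0.0559% to 0.0777% in the other 3. At tiles called higher in iPSC, XX ESC 1 had a median of 12.1%, against 10.3% to 10.4%. Over the CpGs of the 80 kb stretch of 5S rRNA genes shared by the 4 compared libraries, female MEF 2 averaged 55.8% and the other 3 female MEF libraries 20.1% to 23.9%, but only 99 of the 306 CpGs had enough reads in female MEF 2. None of these libraries belongs to the iPSC or XY ESC group.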

How the results depend on the processing

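The direction of the calls, with more lower than higher tiles, held in every alternative that called tiles. The direction of the median tile difference did not. From -6.33 it moved to -2.87 at 10 reads, 1.35 with at least 5 CpGs and 0.473 over tiles of all 18 samples, and to -7.98 with 2 kb tiles. Against 8117 calls among 59189 tiles (7733 lower, 384 higher), a minimum of 10 reads gave 4124 among 34022 (3849 lower). All 18 samples in the fit gave 3156 among 32195 (2956 and 200), and at least 5 CpGs 2135 among 26317 (1949 and 186). The shares called lower in these 3 settings were 11.3%, 9.18% and 7.41%, against 13.1%. A 30-point limit gave 2516 (2376 and 140), a 10-point limit 15167 (14011 and 1156), and 2 kb tiles 586 higher. Fits without 1 library tested 60197 to 76658 tiles. Only CpGs read in all 4 samples gave 178 higher tiles and 2 list promoters in place of 4. Added after the data were seen, the library type term gave 2178 (1927 and 251). Leaving out 1 library gave 0 to 13688 calls, 0 to 13034 lower, 0 to 654 higher and 0 to 5 list promoters, the 0 values without iPSC 1 or 2. In fits added after the data were seen, limma gave 0, 0, 12223 and 14339 calls without iPSC 1, iPSC 2, XY ESC 1 and XY ESC 2, and all 18 samples gave 3115, 2327, 2202 and 2967. The prior from tiles with a dispersion above 0 gave 3929 and 2081 without the iPSC libraries and 13726 without XY ESC 2. The replicate block gave 0 calls, 0 lower, 0 higher and 0 list promoters, also with the prior from tiles with a dispersion above 0 (4045 tiles at an unadjusted p under 0.05 with 20 points), while limma with the block called 5874; the numbers do not pair the samples (correlation of deviations -0.0161). The background correction gave 0 for the same counts. The CpG level difference of -8.21 was -10.1 after background correction, -6.93 over CpGs of all 18 samples, -1.79 over each sample's own CpGs, -6.76 weighted by reads, -7.41 over tiles and -9.25 less the difference between female MEF libraries of the same kinds. The dense tile difference of 2.65 was 1.42 at 10 reads (4 tiles), 1.60 for 20 or more CpGs and -0.308 after background correction, which also turned the class low in MEF and XX ESC to -0.250. The background was measured on tiles that mostly fall in that class, so its difference was bound to shrink when the background was subtracted. The Parn tile turned to -12.7 over shared CpGs. The cause of these changes was not tested. Depth limits single CpGs most: at 5 reads, 1 read is 20 points.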
